A study of Homo sapiens with 6 samples.

Results

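The miR-99/100 and miR-125 microRNAs (miRNAs) of MDA-MB-231 cells were examined with and without Withaferin A (WA), a steroidal lactone of the plant Withania somnifera. Members were taken by name. Every row starting with hsa-miR-99a-, hsa-miR-99b-, hsa-miR-100-, hsa-miR-125a- or hsa-miR-125b- was used, which gave 10 miRNA rows beside 403 others. Of the 10, 5 are guide (5p) strands, hsa-miR-99a-5p, hsa-miR-99b-5p, hsa-miR-100-5p, hsa-miR-125a-5p and hsa-miR-125b-5p, and 5 are 3p strands. MDA-MB-231 is a human cell line, long in use, that stands for triple-negative breast cancer. The WA group (n = 3) received 2 µM WA for 24 h. The vehicle group (n = 3) was kept for 24 h without WA. The paper's methods name dimethyl sulfoxide as the vehicle, whereas the sample labels call these cells untreated. Both groups are the same line with no genetic change, and the comparison asks whether WA shifted the level of these miRNAs. The hsa- prefix is dropped from here on.

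A miRNA hairpin gives a 5p and a 3p strand. One of them, the guide, is mostly kept in the silencing complex and pairs with messenger RNAs through its seed, bases 2 to 8. The human genome carries 3 copies of an old cluster in which a miR-99/100 hairpin, a let-7 hairpin and a miR-125 hairpin lie on the same strand and can be made from a shared primary transcript. miR-99/100 guides are known to repress MTOR, the growth-controlling kinase. miR-125 guides, relatives of nematode lin-4, are known to repress LIN28 and, in breast cancer cells, the receptor kinases ERBB2 and ERBB3. let-7 guides are known for repression of LIN28, RAS and HMGA2.

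The guide sequences are shown because they set the families apart and show how closely the members resemble each other. They are RefSeq sequences (GRCh38.p14), written 5′ to 3′ with the seed in capitals.
miR-100-5p: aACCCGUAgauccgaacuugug
miR-99a-5p: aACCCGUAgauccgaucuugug
miR-99b-5p: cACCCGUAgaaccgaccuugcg
miR-125b-5p: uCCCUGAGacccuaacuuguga
miR-125a-5p: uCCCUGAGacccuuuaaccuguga
The first 3 share the seed ACCCGUA, and the other 2 share CCCUGAG. No other of the 368 rows that matched a RefSeq name held either seed. miR-99a-5p differs from miR-100-5p at 1 base, A16U, counted from the 5′ end with the miR-100-5p base first. miR-99b-5p differs from miR-100-5p at 4 bases, A1C, U11A, A16C and U21C. miR-125a-5p and miR-125b-5p are alike over their first 13 bases. How reads shared by such close sequences were counted is not given in the sources used here, so the division of reads between miR-99a-5p and miR-100-5p, 1 base apart, is uncertain.

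The 3p strands are shown because they tell hairpins apart whose guides are alike or identical.
miR-100-3p: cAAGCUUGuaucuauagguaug
miR-99b-3p: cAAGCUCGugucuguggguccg
miR-125a-3p: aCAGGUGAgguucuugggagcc
miR-125b-1-3p: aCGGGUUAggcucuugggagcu
miR-125b-2-3p: uCACAAGUcaggcucuugggac
Each of these has a seed of its own among the matched rows. miR-125b-5p is made from both MIR125B1 and MIR125B2, so only its 3p strands tell its sources apart. RefSeq also lists miR-99a-3p, which had no row among the deposited values.

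The let-7 guides of the same clusters are shown for the same reason.
let-7a-5p: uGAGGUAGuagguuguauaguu
let-7c-5p: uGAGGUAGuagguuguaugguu
let-7e-5p: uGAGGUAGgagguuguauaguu
let-7c-5p differs from let-7a-5p by A19G and let-7e-5p differs from it by U9G. let-7a-5p is also made from MIRLET7A1 on chromosome 9 and MIRLET7A3 on chromosome 22, so its level does not belong to 1 cluster.

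On chromosome 11, MIR100, MIRLET7A2 and MIR125B1 lie on the minus strand within 52552 bases (chr11:122099757-122152308, GRCh38.p14). The hairpins are intronic in the long noncoding RNA gene MIR100HG (ENSG00000255248, GENCODE release 44). MIR100 is spanned by 24 of its 107 transcripts and MIR125B1 by 65, with 0 exons overlapped. On chromosome 21, MIR99A, MIRLET7C and MIR125B2 lie on the plus strand within 51223 bases (chr21:16539089-16590311), inside the long noncoding RNA gene MIR99AHG (ENSG00000215386). For MIR125B2 only the positions of its mature strands were used, here and for exon overlap. This span thus ends at the last base of miR-125b-2-3p, and the hairpin may reach further. MIR99A is spanned by 128 of the 258 transcripts and overlaps an exon in 0 of them, whereas MIRLET7C overlaps an exon in 3 and MIR125B2 in 1. On chromosome 19, MIR99B, MIRLET7E and MIR125A lie on the plus strand within only 728 bases (chr19:51692612-51693339), inside the protein-coding gene SPACA6 (ENSG00000182310). They are spanned by 2 of the 15 SPACA6 transcripts, and MIR125A overlaps an exon in 1.

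Values are the deposited normalized values, reads divided by a size factor of each library. Library totals, with 1 step of the values taken as 1 read, were 710878 to 4778066 for vehicle and 156442 to 2232934 for WA. A count of 0 allows up to 3 reads, or a normalized value of 4.06 in vehicle replicate 1 and 17.4 in WA replicate 1, and such limits cover counting error only. Libraries did not group cleanly by treatment. Across miRNAs, log2 values of vehicle replicates 2 and 3 correlated at r = 0.987 and those of WA replicates 1 and 2 at 0.964, whereas WA replicate 3 correlated at 0.630 and 0.641 with the other WA libraries and at 0.772 to 0.797 with the vehicle libraries. Vehicle replicate 1 correlated at 0.785 and 0.792 with the other vehicle libraries. These r values are across miRNAs, which are not independent replicates. The 5 miRNAs taken as typical of this line held from 18.8% (WA replicate 3) to 43.3% of reads. They were miR-21-5p, miR-221-3p, miR-222-3p, miR-22-3p and miR-100-5p, the last itself a member. They did not move together. miR-21-5p stood at 27029 in WA replicate 3 against 277045 and 290979 in WA replicates 1 and 2. miR-221-3p stood at 169488 against 19948 and 19091. Epithelial miR-200 family miRNAs (4 of 6 markers with a row) held 0.189% in vehicle replicate 1 and 0.0739% in WA replicate 3, against at most 0.0183% in the other libraries and 0 in WA replicates 1 and 2. Of 7 markers of blood, liver and muscle, 1 had a row, at no more than 0.00113% of reads. The part of these differences in the results was not tested. Whether the labels of vehicle replicate 1 and WA replicate 3 are right was not tested either, so group values hold for the libraries as labelled, and fold changes that turned on these libraries are also given without one or both of them.

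No member passed the test for a WA effect. By limma on log2(normalized value + 1), 0 of the 10 members had an adjusted p under 0.05, where 5.5% of the 327 miRNAs tested did. At an unadjusted p under 0.05 there was 1 member, miR-100-3p, where 26.3% of all tested miRNAs were. The WA libraries all lay above the vehicle libraries for 2 members, miR-100-3p and miR-125a-3p (7.65% of all tested), and all lay below them for 0 members (19.6% of all tested). All 10 members passed the filter on low values. The median log2 fold change was 0.60 over the members, with 6 positive and 4 negative, while the median over all tested miRNAs was -0.91. With upper-quartile scaling the latter was -0.66, and no member's fold change turned sign under either other scaling. The median over all tested miRNAs also moved with the filter on low values. It was -1.31 with no filter and -0.10 over the 173 miRNAs that reached 10 in every library. Those 173 leave out miR-100-3p and miR-125b-2-3p. The guide members had a median of -0.69 and the 3p members of 0.77. With bulk RNA, fewer cells making a miRNA and less of it per cell cannot be told apart.

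**Figure D1:**
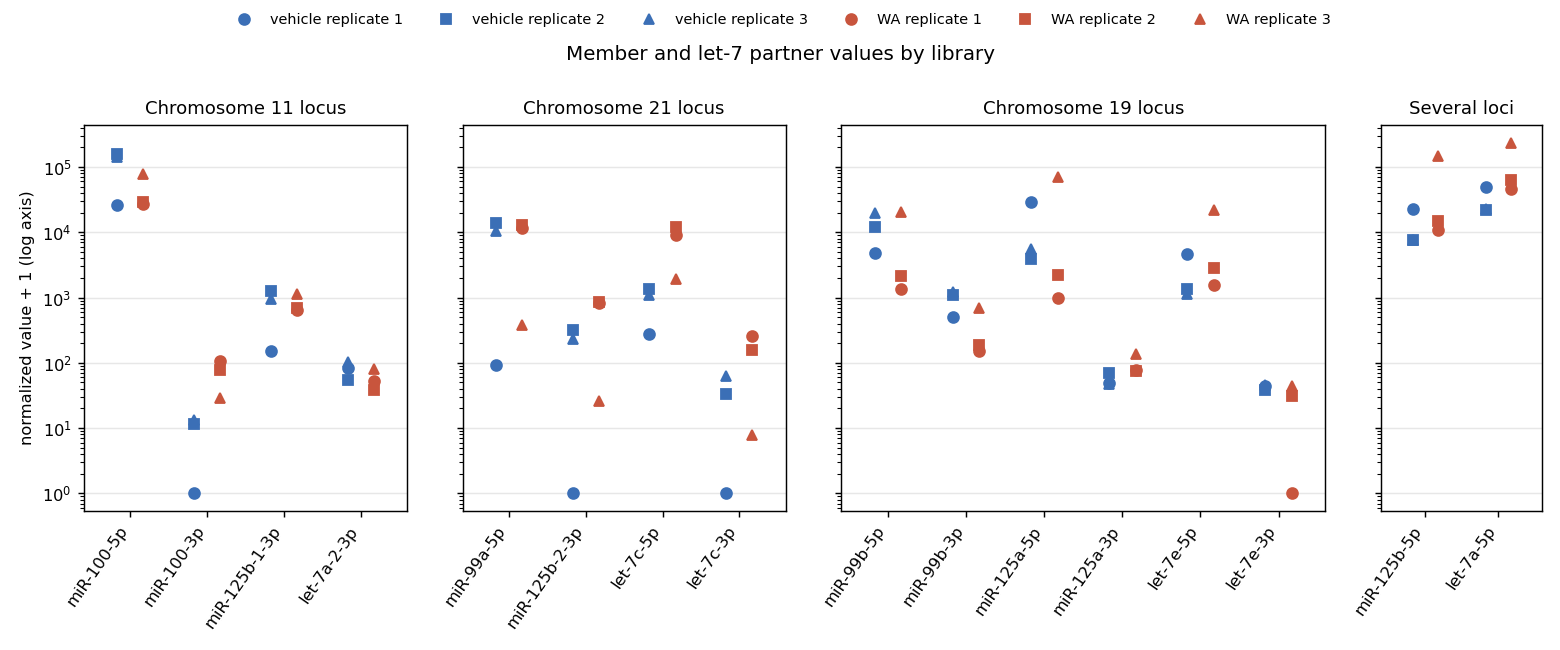
Normalized value + 1 (log axis) of each member and let-7 partner in each library, by chromosomal cluster, with vehicle in blue, WA in red and a marker shape for each replicate number. Vehicle replicate 1 and WA replicate 3 sit far below the other libraries for miR-99a-5p, at 90.7 and 385, and high for miR-125a-5p, at 29463 and 70515.

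miR-100-5p had the highest mean of the members in the vehicle group, although miR-125a-5p was above it in vehicle replicate 1. It stood at 26306, 158098 and 141515 in vehicle replicates 1 to 3. In the WA libraries it stood at 27154, 28979.8 and 77466. The groups overlapped, since vehicle replicate 1 lay below every WA library while the other vehicle libraries lay above them. Among the listed miRNAs it ranked 11th in vehicle replicate 1, with 2.73% of reads. It ranked 2nd in vehicle replicates 2 and 3, with 11.6% and 11.03%, and 6th or 7th in the WA libraries, with 2.87% to 4.62%. The log2 fold change was -1.09 ± 0.99 (SE, limma adjusted p = 0.491). Without vehicle replicate 1 and WA replicate 3, which were named as apart after the data were seen, it was -2.41 (limma adjusted p = 0.000305). In that fit 71.9% of all tested miRNAs had an adjusted p under 0.05.

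The 3p strand of the same hairpin went the other way. miR-100-3p stood at 0, 10.6 and 12.5 in vehicle and at 104, 76.8 and 27.8 in WA. Every WA library lay above every vehicle library, on few reads, with 0, 37 and 41 reads against 18, 43 and 37. The log2 fold change was 3.52 ± 1.40 (SE), with an unadjusted p of 0.0384 and a limma adjusted p of 0.176. Its size depends on the 0 in vehicle replicate 1, since it was 4.67 with a pseudocount of 0.1, 2.11 with a pseudocount of 10 and 2.30 without that library. The WA mean was 7.69 times the vehicle mean when vehicle replicate 1 was set at its limit of 3 reads. miR-100-3p passed the threshold without WA replicate 3 (limma adjusted p = 0.0487), when 45.0% of all tested miRNAs did. It was at 2.86 without both libraries (limma adjusted p = 0.00315), when 71.9% did.

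A ratio of 2 rows within a library does not depend on library scaling, and here both rows come from 1 hairpin. There were 14961 and 11293 reads of miR-100-5p for each read of miR-100-3p in vehicle replicates 2 and 3, and at least 6474 in vehicle replicate 1. The WA libraries had 260.2, 377 and 2787. As a share of both strands, miR-100-3p made up 0.00668% (95% Wilson interval 0.00485 to 0.00921) in vehicle replicate 2 and 0.00885% (0.00653 to 0.0120) in vehicle replicate 3. It made up 0.383% (0.242 to 0.604), 0.264% (0.196 to 0.356) and 0.0359% (0.0260 to 0.0494) in WA replicates 1 to 3. The groups did not overlap, and the interval of each WA library lay above those of the vehicle libraries, although WA replicate 3 lay between the others and the vehicle libraries. With 1 read added to each strand, the log2 ratio was 13.83 ± 0.41 in vehicle and 9.29 ± 1.85 in WA (SD, n = 3), a difference of -4.54 (two-sided exact permutation p = 0.1, the smallest that 3 against 3 allows; adjusted p = 0.28 over the 14 ratios examined). It was -3.99 with no read added in any library and miR-100-3p of vehicle replicate 1 set at its limit.

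miR-125b-1-3p, the 3p strand from the chromosome 11 copy of miR-125b, had values of 149, 1275 and 933 in the vehicle libraries. In the WA libraries they were 643, 689.7 and 1129.97. The groups overlapped, and the log2 fold change was 0.50 ± 0.94 (SE, limma adjusted p = 0.732), turning to -0.46 without vehicle replicate 1. Relative to miR-100-5p of the same cluster, however, it was higher in every WA library. The ratio was 0.00566, 0.00807 and 0.00659 in vehicle, compared with 0.0237, 0.0238 and 0.0146 in WA. The lowest WA ratio was 1.81 times the highest vehicle ratio. The log2 ratio differed by 1.59 (exact permutation p = 0.1, adjusted p = 0.28) and by 1.71 without vehicle replicate 1 and WA replicate 3.

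let-7a-2-3p, the 3p strand that marks the let-7 hairpin of this cluster, ranged from 54.0 to 100.3 in vehicle and from 37.5 to 80.4 in WA, and the groups overlapped (log2 fold change -0.49 ± 1.05, SE, limma adjusted p = 0.763). let-7a-5p, which has other sources, ranged from 22282.5 to 49995 in vehicle and from 46378 to 234802 in WA (log2 fold change 1.58 ± 0.91, SE, limma adjusted p = 0.320). Without vehicle replicate 1 and WA replicate 3 it was 1.26 (limma adjusted p = 0.00713), when 71.9% of all tested miRNAs passed the threshold.

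The chromosome 21 members varied more between libraries of 1 group than between groups. miR-99a-5p stood at 90.7, 14089 and 10558 in vehicle and at 11786, 12905 and 385 in WA. The highest library was 155 times the lowest, the widest range of any member seen in every library. The low libraries were vehicle replicate 1, with 67 reads, and WA replicate 3, with 512 reads. The log2 fold change was 0.70 ± 2.18 (SE, limma adjusted p = 0.833), -1.65 without vehicle replicate 1, and 0.016 without both low libraries.

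miR-125b-2-3p followed the same order at the low end. It stood at 0, 312 and 233 in vehicle and at 817, 854 and 24.8 in WA, and the log2 fold change was 2.65 ± 2.49 (SE, limma adjusted p = 0.4996). It was 3.74 with a pseudocount of 0.1 and 1.66 with a pseudocount of 10, as vehicle replicate 1 was at 0, and -0.044 without vehicle replicate 1. Without both low libraries it was 1.63 (limma adjusted p = 0.00713), against 71.9% of all tested miRNAs past the threshold in that fit. let-7c-3p stood at 0, 32.3 and 62.0 in vehicle and at 255, 159 and 6.76 in WA (log2 fold change 2.41 ± 2.08, SE, limma adjusted p = 0.461). It was 0.58 without vehicle replicate 1, and 2.14 without both low libraries (limma adjusted p = 0.0207), in the fit where 71.9% passed. All 3 of these rows of the chromosome 21 cluster were lowest in vehicle replicate 1 and next lowest in WA replicate 3.

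let-7c-5p, the let-7 guide of this cluster, was the 1 let-7 partner of 6 whose groups did not overlap. Its WA libraries all lay above its vehicle libraries. Of all tested miRNAs, 7.65% did so and 19.6% had all WA libraries below. let-7c-5p stood at 271, 1343 and 1097 in vehicle and at 9159.7, 12101 and 1926 in WA. The log2 fold change was 3.02 ± 0.97 (SE), with an unadjusted p of 0.0159 and a limma adjusted p of 0.118. It was 3.84 without WA replicate 3 (limma adjusted p = 0.0120) and 3.12 without both libraries (limma adjusted p = 0.000751). In these fits, in turn, 45.0% and 71.9% of all tested miRNAs passed the threshold. As a percentage of let-7a-5p, 1 base apart, let-7c-5p came to 0.542, 6.03 and 4.82 in vehicle and to 19.8, 19.3 and 0.820 in WA, so that the groups overlapped on this scale. Of the 6 let-7 partners, 0 had an adjusted p under 0.05, and their median log2 fold change was 1.42 with 4 positive and 2 negative.

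The ratio of the chromosome 21 members miR-125b-2-3p and miR-99a-5p varied less within a group than their levels did. There were 0.0221 reads of miR-125b-2-3p for each read of miR-99a-5p in vehicle replicate 2 and 0.0221 in vehicle replicate 3. Vehicle replicate 1 had no miR-125b-2-3p read beside its 67 miR-99a-5p reads, which allows a ratio of up to 0.0448. The WA libraries had 0.0694, 0.0662 and 0.0645. WA replicate 3 was thus beside WA replicates 1 and 2 in this ratio, although its miR-99a-5p value was far below theirs. Its ratio rests on 33 reads of miR-125b-2-3p beside 512 of miR-99a-5p, and no interval for this counting error was taken. In WA replicate 3 miR-99a-5p came to 0.497% of miR-100-5p, which is 1 base apart, and in vehicle replicate 1 to 0.345%. How reads shared by these sequences were divided is not given in the sources used here, and its part in the ratio was not tested. The lowest WA ratio was 2.91 times the higher of the ratios in vehicle replicates 2 and 3. The log2 ratio was -5.69 ± 0.34 in vehicle and -3.89 ± 0.043 in WA (SD, n = 3), a difference of 1.80 (exact permutation p = 0.1, adjusted p = 0.28), and it was 1.61 without vehicle replicate 1. The proportion of let-7c-5p to miR-99a-5p was not as even, at 2.99, 0.0954 and 0.104 in vehicle and at 0.777, 0.938 and 5.01 in WA, and its groups overlapped (exact permutation p = 0.3).

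**Figure D2:**
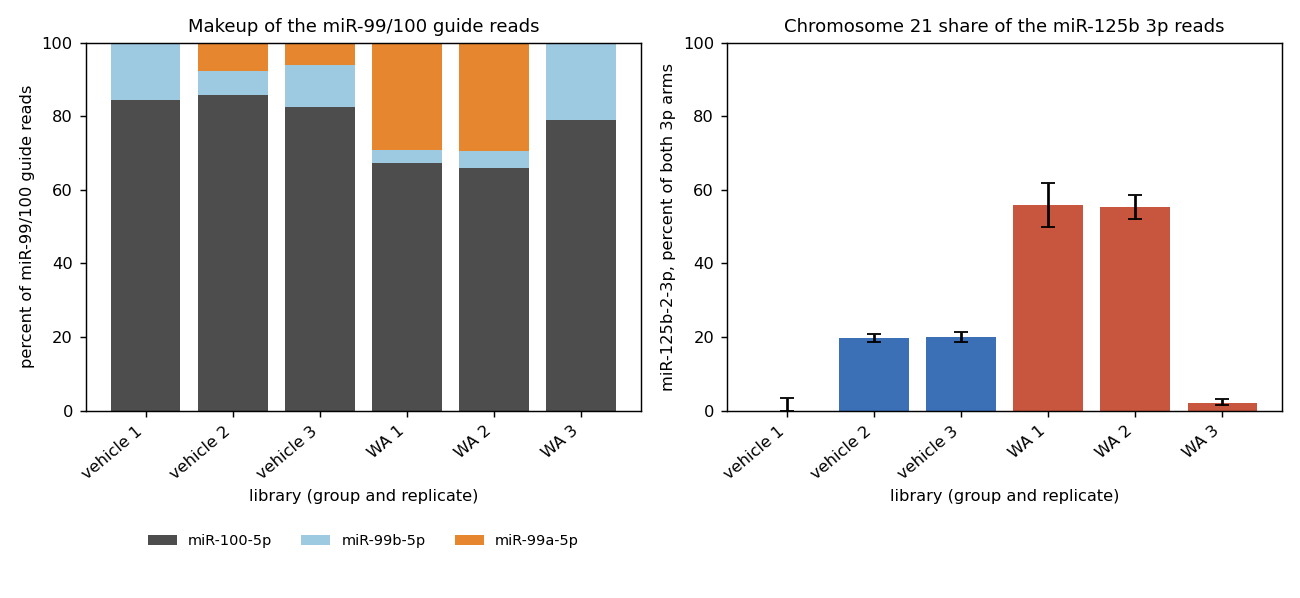
Left, percent of miR-99/100 guide reads held by miR-100-5p, miR-99b-5p and miR-99a-5p in each library; right, miR-125b-2-3p as a percent of the reads of both miR-125b 3p strands, with 95% Wilson intervals that cover counting error only. miR-99a-5p held 29.3% in WA replicates 1 and 2 and 0.291% and 0.392% in vehicle replicate 1 and WA replicate 3.

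The 3p strands of the 2 clusters that make miR-125b were present in different proportions from library to library. How much of miR-125b-5p came from each cluster was not measured. miR-125b-2-3p made up 0% (95% Wilson interval 0 to 3.37), 19.7% (18.6 to 20.7) and 20.0% (18.7 to 21.3) of the miR-125b 3p reads in vehicle replicates 1 to 3. It made up 56.0% (49.8 to 61.9), 55.3% (52.0 to 58.6) and 2.15% (1.53 to 3.00) in WA replicates 1 to 3. The groups overlapped, with a difference of -2.00 in the log2 ratio of miR-125b-1-3p over miR-125b-2-3p (exact permutation p = 0.5, adjusted p = 0.70). miR-99a-5p moved alongside. As a percentage of miR-100-5p it came to 0.345, 8.91 and 7.46 in vehicle and to 43.4, 44.5 and 0.497 in WA. miR-100-5p remained the largest miR-99/100 guide in every library, at 82.5% to 85.9% of their reads in vehicle and 65.9% to 78.9% in WA.

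miR-125b-5p, the guide shared by both clusters, had values of 23109, 7612 and 7569 in the vehicle libraries. The WA values were 10759.7, 14801 and 146399. WA replicate 3 was 1 library far above the rest, where miR-125b-5p was the 3rd most abundant of the listed miRNAs with 8.73% of reads. Vehicle replicate 1 lay above WA replicates 1 and 2, and the groups overlapped (log2 fold change 1.38 ± 1.13, SE, limma adjusted p = 0.445). Without WA replicate 3 alone the fold change was 0.20 (limma adjusted p = 0.843), and without vehicle replicate 1 and WA replicate 3 it was 0.73 (limma adjusted p = 0.0390). In the latter fit 71.9% of all tested miRNAs passed the threshold. For each 3p read there were 155, 4.796 and 6.49 reads of miR-125b-5p in vehicle and 7.37, 9.59 and 127 in WA, so that this ratio too was high in the same 2 libraries.

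On chromosome 19, the miR-99b strands were low in WA replicates 1 and 2. miR-99b-5p stood at 4738, 11886 and 19414 in vehicle and at 1345, 2106 and 20289.9 in WA. WA replicate 3 lay above every vehicle library, so the groups overlapped (log2 fold change -1.42 ± 1.13, SE, limma adjusted p = 0.443). miR-99b-3p stood at 511, 1107 and 1211 in vehicle and at 151, 189 and 684 in WA (log2 fold change -1.71 ± 0.85, SE, unadjusted p = 0.0826, limma adjusted p = 0.239). Without WA replicate 3 the fold changes were -2.61 for miR-99b-5p (limma adjusted p = 0.0302) and -2.38 for miR-99b-3p (limma adjusted p = 0.0199), when 45.0% of all tested miRNAs passed the threshold. Without both libraries they were -3.17 (limma adjusted p = 0.00309) and -2.77 (limma adjusted p = 0.00114), when 71.9% of all tested miRNAs passed.

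The miR-99b strands kept close to each other. There were 9.28, 10.7 and 16.0 reads of the 5p strand for each 3p read in vehicle and 8.92, 11.1 and 29.7 in WA. The log2 ratio differed by 0.28 between groups (exact permutation p = 0.8), with WA replicate 3 the highest.

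miR-125a-5p comes from the last hairpin of this cluster. Like miR-99b-5p it was lowest in WA replicates 1 and 2 and highest in WA replicate 3, but the order of the vehicle libraries differed. It stood at 29463, 3959 and 5524 in vehicle and at 974, 2210.1 and 70515 in WA. The highest library was 72.4 times the lowest, with vehicle replicate 1 and WA replicate 3 at the top and WA replicates 1 and 2 at the bottom. The log2 fold change was -0.69 ± 1.63 (SE, limma adjusted p = 0.783), and it became 0.53 without WA replicate 1, -2.56 without WA replicate 3 and -1.67 without vehicle replicate 1 and WA replicate 3 (limma adjusted p = 0.0390). In that last fit 71.9% of all tested miRNAs passed the threshold. miR-125a-3p, in contrast, differed little, at 47.4, 68.3 and 47.1 in vehicle and 75.4, 75.0 and 136 in WA. Its groups did not overlap, but the step between vehicle replicate 2 and WA replicate 2 was small and WA replicate 1 held only 13 reads (log2 fold change 0.77 ± 1.02, SE, limma adjusted p = 0.620).

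There were 622, 58.0 and 117 reads of miR-125a-5p for each read of miR-125a-3p in vehicle. The WA libraries had 12.9, 29.5 and 519. Vehicle replicate 1 and WA replicate 3 were again the highest libraries, and the groups overlapped (difference of -1.50 on the log2 scale, exact permutation p = 0.4, adjusted p = 0.70).

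let-7e-5p, between miR-99b and miR-125a, stood at 4694, 1333 and 1142 in vehicle and at 1554, 2878 and 21700.2 in WA (log2 fold change 1.25 ± 1.11, SE, limma adjusted p = 0.471, and 0.13 without WA replicate 3). let-7e-3p ranged from 37.4 to 44.3 in vehicle and from 0 to 42.8 in WA (limma adjusted p = 0.455). Relative to miR-99b-5p, let-7e-5p came to 0.991, 0.112 and 0.0588 reads in vehicle and to 1.16, 1.37 and 1.07 in WA. The groups did not overlap, yet vehicle replicate 1 was close to the WA libraries. The log2 ratio differed by 2.67 (exact permutation p = 0.1, adjusted p = 0.28). For miR-125a-5p over miR-99b-5p the groups overlapped, with ratios of 6.22, 0.333 and 0.285 in vehicle and 0.724, 1.05 and 3.48 in WA.

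**Figure D3:**
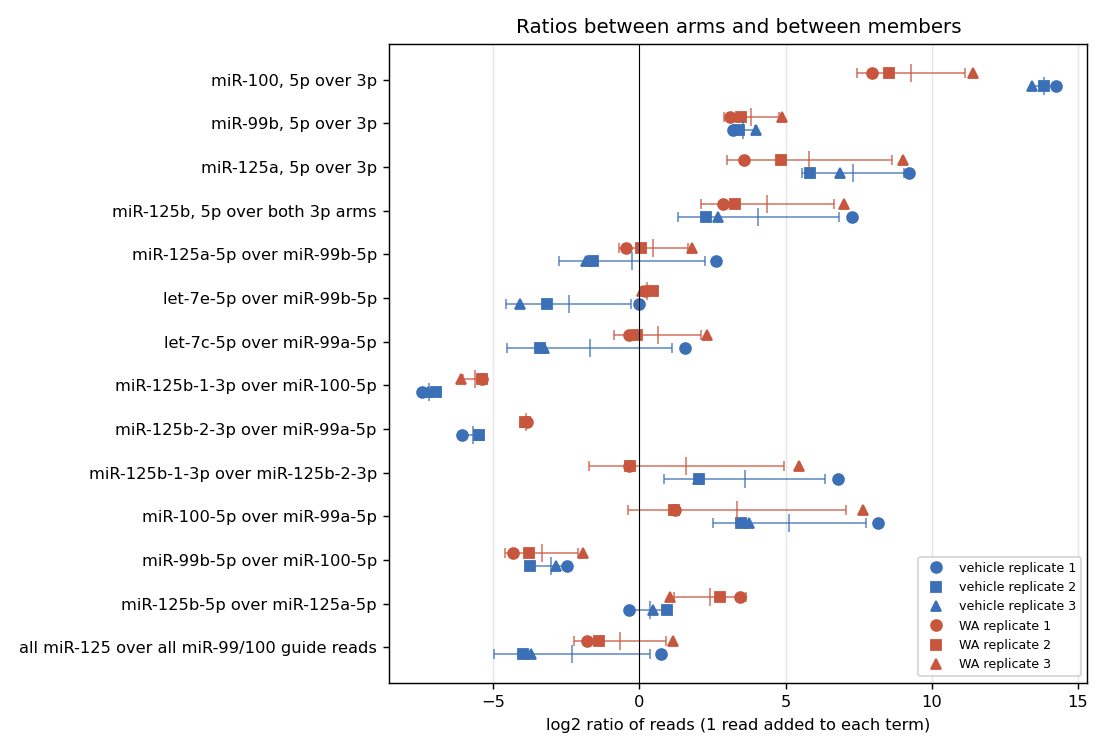
Log2 ratio of reads between strands or members (1 read added to each term) in each library, with vehicle in blue and WA in red and the group mean and SD as a tick and a bar. The WA and vehicle libraries did not overlap for 5 of the 14 ratios, among them miR-100 5p over 3p and miR-125b-2-3p over miR-99a-5p.

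The miR-125 guides shifted against each other as well. There were 0.784, 1.92 and 1.37 reads of miR-125b-5p for each read of miR-125a-5p in vehicle and 11.05, 6.70 and 2.08 in WA. Every WA library lay above every vehicle library, with WA replicate 3 only just above vehicle replicate 2 (log2 difference 2.07, exact permutation p = 0.1, adjusted p = 0.28). In all, 5 of the 14 ratios had groups that did not overlap, each at the smallest p the design allows, and none passed the adjustment. They are not all separate results, since miR-100-5p is in both miR-100 5p over 3p and miR-125b-1-3p over miR-100-5p. How often ratios of other miRNAs have groups that do not overlap was not examined.

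By seed family, miR-99/100 guides summed to 3.23%, 13.5% and 13.4% of reads in vehicle and to 4.44%, 4.36% and 5.85% in WA. The widest 95% Wilson interval of these shares was ± 0.102 percentage points, and the groups overlapped through vehicle replicate 1 (two-sided exact permutation p = 0.4). miR-125 guides summed to 5.46%, 0.848% and 1.02% in vehicle and to 1.29%, 1.69% and 12.9% in WA (exact permutation p = 0.5). Vehicle replicate 1 and WA replicate 3 were the only libraries in which miR-125 guide reads outnumbered miR-99/100 guide reads, with ratios of 1.69 and 2.21 against 0.0629 to 0.387 in the other libraries.

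In mean normalized value, the vehicle order was miR-100-5p (108639 ± 71783, SD, n = 3), miR-125a-5p (12982 ± 14294), miR-125b-5p (12763 ± 8960), miR-99b-5p (12013 ± 7339) and miR-99a-5p (8246 ± 7280). The last 4 did not differ beyond their SDs, and vehicle replicate 1 alone put miR-125a-5p in 2nd place. In WA the order was miR-125b-5p (57319.9 ± 77171), miR-100-5p (44533 ± 28535), miR-125a-5p (24566 ± 39798), miR-99a-5p (8359 ± 6928) and miR-99b-5p (7914 ± 10725), and no neighbours in this order differed beyond their SDs. This order was set by WA replicate 3 alone. In WA replicates 1 and 2 miR-100-5p was highest and miR-125a-5p was below miR-99a-5p. All 5 guides are of nearly the same length, but adapter ligation is known to favour some small RNAs over others, so the order is one of reads.

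**Figure D4:**
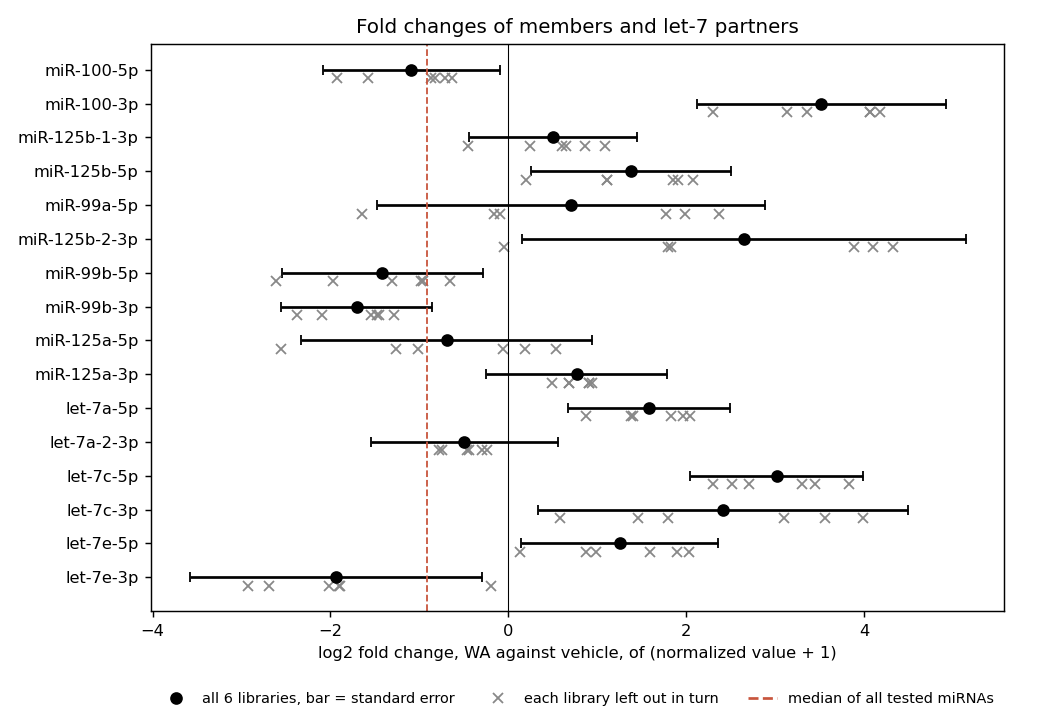
Log2 fold change of normalized value + 1, WA against vehicle, for the 10 members and 6 let-7 partners, as points with standard errors, with crosses for the fits that leave out each library in turn and a dashed line at the median of all tested miRNAs, -0.91. miR-99a-5p, miR-125b-1-3p, miR-125b-2-3p and miR-125a-5p have crosses on both sides of 0. The median was -0.10 over the 173 miRNAs that reached 10 in every library.

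For each guide, the tested miRNAs with the most similar pattern were sought among 311 miRNAs outside the members and let-7 partners, by the root mean square difference of centred log2 values over the 6 libraries. Nearest to miR-100-5p were miR-106b-3p (0.484) and miR-330-5p (0.490), where the median over all compared was 1.94. miR-99a-5p had no miRNA as near, with miR-148a-3p at 1.22 and miR-147b-3p at 1.28 (median 3.64). miR-148a-3p stood at 318, 33431 and 34875 in vehicle and at 4922, 6888 and 658 in WA, low in the same 2 libraries as miR-99a-5p. Nearest to miR-99b-5p were miR-361-3p (0.432) and miR-744-5p (0.453, median 2.08), and nearest to miR-125a-5p were let-7d-5p (0.646) and miR-2116-3p (1.07, median 2.56). Nearest to miR-125b-5p were miR-342-3p (0.346) and miR-221-3p (0.401, median 2.39). miR-221-3p, one of the miRNAs typical of this line, stood at 62289, 13433 and 10869 in vehicle and at 19948, 19091 and 169488 in WA. These values describe 6 libraries, within each of which all miRNAs share the same depth and scaling, and no test was made of them.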

How the data were processed

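All 6 small RNA libraries were used, 3 from each group. Per the paper's methods, the authors trimmed adapters, aligned reads to GRCh38.p10 by Bowtie, removed other noncoding RNAs and took the counts from non-redundant reads that matched mature miRNA sequences. How redundancy was defined is not given in the sources used here. The deposited signal is a normalized value per miRNA and library. Per the labels, DESeq2 was among the authors' tools. The deposited log2 fold changes, linear fold ratios and p-values of the authors' comparison were not used.

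Values of each library were whole multiples of 1 step (each within 0.001 of a whole number of steps), and 1 step was taken as 1 read. A check of the steps did not accept them as recovered reads, so count tests were not run and every number of reads rests on this assumption. limma 3.58.1 in R 4.3.3 was run unpaired and two-sided on log2(normalized value + 1) with a variance trend and Benjamini-Hochberg adjustment, over the 327 miRNAs that reached 10 in 3 or more libraries, and was tested on simulated data. Shares and ratios were compared by exact permutation tests. Intervals are 95% Wilson intervals. Nearest miRNAs were the 2 with the smallest root mean square difference. Python 3.11.15 with scipy 1.17.1, pandas 2.3.3 and numpy 2.4.6 served for the rest. Members, let-7 partners and markers were chosen with earlier results of these data known. The paper calls the replicates independent. The limma p-values weigh group differences against the spread between these libraries, with variances drawn toward a trend over all tested miRNAs. The permutation p-values rank the observed difference among all divisions of the libraries into groups. The alternatives were other scalings, pseudocounts and filters, no variance trend, the replicate number as a block, and libraries left out.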

Additional observations from a re-analysis of the deposited data

How the results depend on the processing

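With 2 exceptions, the count of members at a limma adjusted p under 0.05 was 0 under each alternative run. Leaving out 1 library at a time gave from 0 to 3 members, the 3 being miR-100-3p, miR-99b-5p and miR-99b-3p without WA replicate 3, and leaving out vehicle replicate 1 and WA replicate 3 together, an alternative chosen after seeing the data, gave 7. The share of all tested miRNAs past the threshold rose in these fits too, from 18 of 327 to 147 and 235. Over all tested miRNAs the count was 27 with total-count scaling, 14 with upper-quartile scaling, 7 with a pseudocount of 0.1 or 10, 53 with no filter and 17 with no variance trend. It was 0 of 173 when a value of 10 was asked of every library (29 at an unadjusted p under 0.05), and 0 without vehicle replicate 2 or 3 or WA replicate 1 or 2 (46 to 52 at an unadjusted p under 0.05).

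Some directions turned when 1 library was left out. Log2 fold changes then ran from -0.46 to 1.09 for miR-125b-1-3p (-0.71 without vehicle replicate 1 and WA replicate 3), from -1.65 to 2.37 for miR-99a-5p, from -0.044 to 4.32 for miR-125b-2-3p and from -2.56 to 0.53 for miR-125a-5p. The log2 difference in the share of miR-125 guides ran from -0.18 to 1.71, and differences in log2 ratios ran from -0.26 to 0.63 for miR-99b 5p over 3p (-0.43 without both libraries), from -1.01 to 1.89 for miR-125b 5p over 3p, from -0.057 to 2.17 for miR-125a-5p over miR-99b-5p and from -1.03 to 0.17 for miR-99b-5p over miR-100-5p. The cause was not tested. The 5 ratios whose groups did not overlap kept their direction in each of these fits. That was fixed beforehand, because leaving out libraries cannot turn the direction where groups do not overlap.

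No pairing by replicate number was seen. Deviations from the group means correlated at -0.069, 0.057 and -0.087 for same-numbered libraries and at -0.068 to 0.084 for the others. With 3 libraries in each group, 2 of them far from the rest, this cannot exclude pairing. With the number as a replicate block, 0 members and 24 of 327 miRNAs passed the threshold, and for the shares of miR-99/100 and miR-125 guides the exact sign-flip p was 0.5 and 0.75, where 3 pairs cannot go below 0.25. The edgeR and DESeq2 alternatives were not run, because the values could not be taken as reads with enough certainty. WA replicate 1, at 156442 reads, limits the low 3p strands most, since a value under 17.4 there cannot be told from 0.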
